A study of Mus musculus with 22 samples.

Results

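Transcripts of 38 genes of glucose use and of the response to low oxygen were followed in mouse TH2 cells, the helper T cells of type 2 immunity, after exposure to calcitriol. The genes were chosen by name. The set held 21 genes from glucose uptake to lactate export, with the kinase that closes the entry of pyruvate into mitochondria, and 17 genes of the hypoxia-inducible factor (HIF) pathway. All 38 were found among the 49671 genes of the count table, Ero1a under its older symbol Ero1l, and all 38 passed the filter on low counts. Calcitriol, the active hormone of vitamin D, was given at 100 nM for the final 24 hours of culture to 11 libraries, and 11 vehicle libraries were given 2% ethanol. All cells were WT, were polarized in vitro and were harvested on day 5. They derived from male and female Balb/c mice that had been bought at 6 to 8 weeks of age and bred for 2 generations on a diet with 400, 1000 or 4000 IU of vitamin D3 per kg. The labels do not tie a library to a mouse, sex, diet or culture, and they do not give the ethanol content of the calcitriol cultures. The p-values therefore refer only to variation among these libraries, which may in part be technical. A difference in ethanol between the groups cannot be told apart from that in calcitriol.

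Glycolysis splits glucose into pyruvate in the cytosol, and activated T cells pass much of that pyruvate on to lactate even when oxygen is present. The HIF alpha subunits are made continuously and are marked for destruction by oxygen-dependent prolyl hydroxylases. When they escape this, they pair with ARNT, bind a short DNA core and raise the transcription of glucose transporters, most glycolytic enzymes and genes that spare oxygen. Many glycolytic steps have several isoenzymes, which differ in tissue use and in regulation.

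Most of the 38 genes had similar levels in the calcitriol and vehicle libraries. In the fit over all 11905 genes tested (edgeR quasi-likelihood, Benjamini-Hochberg adjusted p under 0.05), 4 of the 38 rose, namely Pfkfb3, Bnip3l, Hif1a and Pgk1, and 3 fell, namely Hk2, Vegfa and Slc16a1. That is 18.4% of the 38, while 31.5% of all genes tested were called, 16.1% higher and 15.5% lower. The difference between these shares was not tested. The median log2 change was -0.05 over the 38 genes and -0.01 over all genes tested, and the median size of the change, without its sign, was 0.11 and 0.15. Of the 38, 29 lay within 0.2 of 0 on the log2 scale, as did 7423 of all 11905 genes tested. Among the 31 genes without a call, 26 had a 95% interval that stayed within 0.5 of 0. Levels are given as CPM, read counts scaled to library size with TMM factors. Because each library is bulk RNA, fewer cells with a transcript and less of it per cell cannot be told apart.

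**Figure D1:**
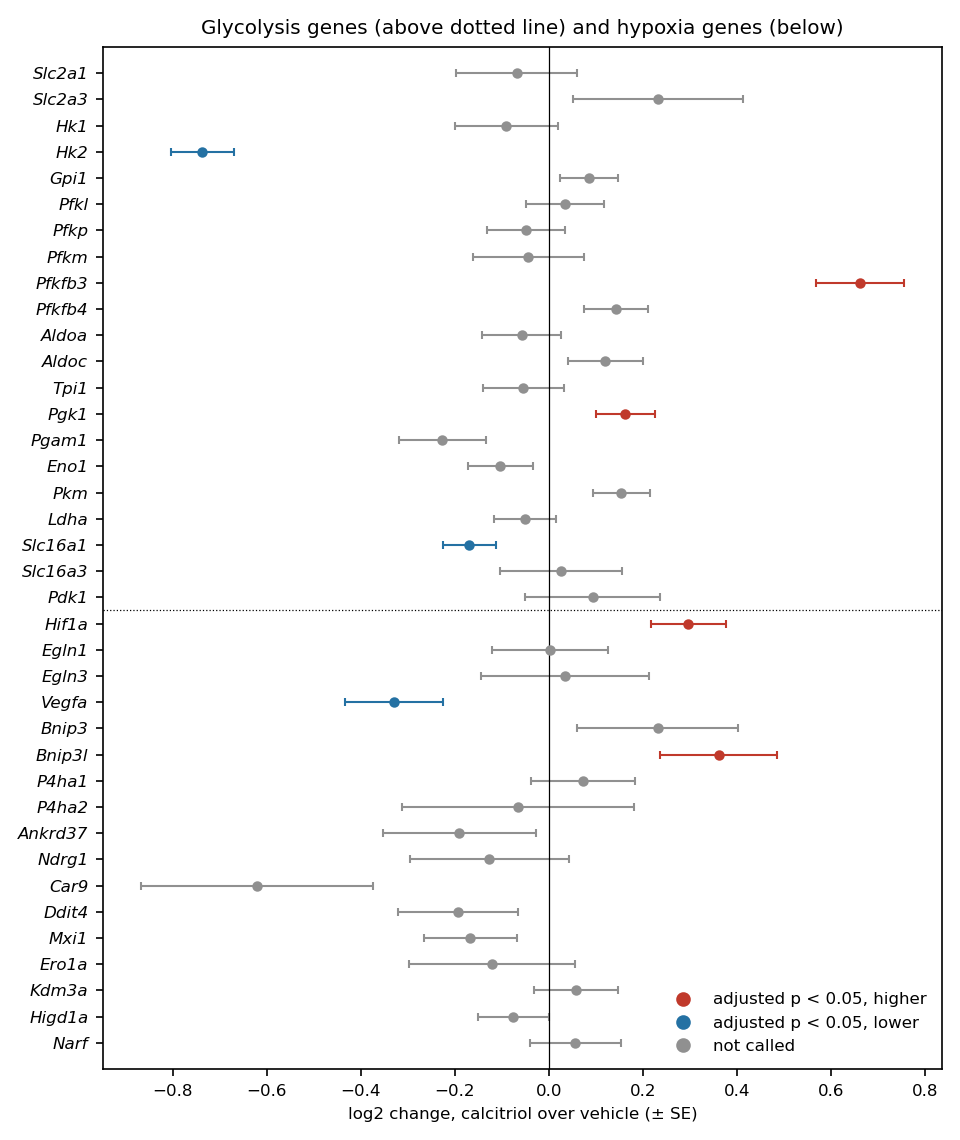
Log2 change of each of the 38 genes, calcitriol over vehicle, with its standard error on the horizontal axis and the genes in pathway order down the page. Hk2 at -0.74 and Pfkfb3 at 0.66 lie farthest from 0 among the called genes. Of the 38 genes, 29 lie within 0.2 of 0, as do 7423 of all 11905 genes tested.

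HIF binding was not measured here, but the promoter letters can be shown. The HIF core was searched as ACGTG and GCGTG on both strands, in RefSeq windows of 300 bases around the start site (GRCm38.p6), so that a palindromic CACGTG holds 2 overlapping matches. Of the 38 genes, 35 had a window, and 28 of these held a core, as did 43.8% of all 32851 windows and 49.3% of the 21263 windows of protein-coding genes; the difference was not tested. The E-box CACGTG, which MYC and its partners bind, was in 5 of the 35 and in 7.15% of all windows. Of the 7 called genes, 6 had a window and 5 of those held a core, the exception being Vegfa. Vegfa had 2 windows, of which only the one nearest its annotated start site was counted. Sequence outside the windows was not searched. The stretches upstream of the start site are printed here for 4 called genes that moved in either direction, with every HIF core in capitals. They lie on chromosome 6 at chr6:82774455-82774704 (minus strand) for Hk2, chrX:106186850-106187099 (plus strand) for Pgk1, chr3:104638414-104638663 (plus strand) for Slc16a1 and chr17:46032378-46032627 (minus strand) for Vegfa.
Hk2: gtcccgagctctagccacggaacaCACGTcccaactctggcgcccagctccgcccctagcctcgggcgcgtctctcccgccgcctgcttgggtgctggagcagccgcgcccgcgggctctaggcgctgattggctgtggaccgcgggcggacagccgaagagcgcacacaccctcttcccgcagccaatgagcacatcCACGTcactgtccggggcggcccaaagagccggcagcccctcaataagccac
Pgk1: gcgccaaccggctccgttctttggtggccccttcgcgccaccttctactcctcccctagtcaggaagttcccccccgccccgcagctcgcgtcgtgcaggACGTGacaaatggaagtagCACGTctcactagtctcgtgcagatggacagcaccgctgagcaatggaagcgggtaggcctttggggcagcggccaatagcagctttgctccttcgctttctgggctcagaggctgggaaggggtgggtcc
Slc16a1: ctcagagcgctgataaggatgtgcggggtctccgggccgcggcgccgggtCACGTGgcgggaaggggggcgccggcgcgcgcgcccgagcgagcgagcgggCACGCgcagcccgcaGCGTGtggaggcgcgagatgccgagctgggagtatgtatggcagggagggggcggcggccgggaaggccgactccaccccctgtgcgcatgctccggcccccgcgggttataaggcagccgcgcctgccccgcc
Vegfa: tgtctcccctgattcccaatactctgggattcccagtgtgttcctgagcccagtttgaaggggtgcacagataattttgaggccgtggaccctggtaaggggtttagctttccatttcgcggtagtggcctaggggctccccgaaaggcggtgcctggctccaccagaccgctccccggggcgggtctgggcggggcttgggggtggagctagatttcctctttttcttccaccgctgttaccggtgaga
The Hk2 and Pgk1 stretches each held 2 cores although Hk2 fell and Pgk1 rose. The Slc16a1 stretch held 4 matches, a pair of them in its E-box. A match describes the letters only.

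Glucose enters through the facilitative transporters, and neither transporter gene passed the test. Slc2a3, which encodes the high-affinity neuronal-type transporter, ran from 588 to 1654 CPM with a median of 1176 in the calcitriol libraries, against 427 to 1291 with a median of 1106 in the vehicle libraries. Its log2 change was 0.23 ± 0.18 (SE; edgeR, adjusted p = 0.362). Slc2a1, the transporter induced by T cell activation, ran from 103 to 201 CPM with a median of 144 in calcitriol and from 93.9 to 206 CPM with a median of 157 in vehicle libraries (-0.07 ± 0.13, adjusted p = 0.734). The groups overlapped widely for both genes.

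Hk2 had the largest called change of the set. This inducible hexokinase, which traps glucose in the cell as glucose phosphate and can dock on mitochondria, lies on chromosome 6 (82725025 to 82774454, GRCm38, ENSMUSG00000000628). It ran from 191 to 277 CPM with a median of 214 in the calcitriol libraries, against 336 to 456 CPM with a median of 358 in the vehicle libraries. Every calcitriol library lay below every vehicle library. Hk2 fell by 0.74 on the log2 scale with an SE of 0.07 (edgeR, adjusted p = 1.29e-09). It was the only one of the 38 genes, 2.63%, whose groups did not overlap, and 4.36% of all genes tested had groups that did not overlap. The constitutive isoenzyme Hk1 ran from 110 to 193 CPM with a median of 175 in calcitriol and from 138 to 237 CPM with a median of 175 in vehicle libraries (-0.09 ± 0.11, adjusted p = 0.583).

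Per kilobase of exon, on the TMM scale, Hk1 and Hk2 together gave 56.5 ± 6.79 CPM per kilobase in calcitriol and 82.7 ± 9.70 in vehicle libraries (SD, n = 11 each). The lowest to highest sums were 48.0 to 68.6 and 74.0 to 102.7, without overlap. Hk2 gave 37.3 and 62.3 of the mean sums in calcitriol and vehicle libraries, and Hk1 gave 19.2 and 20.4. The sum therefore restates the Hk2 difference and is not a further result. No later step of the pathway had sums without overlap between the groups.

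From glucose phosphate to fructose bisphosphate, a regulator was called and the enzymes were not. Gpi1, the isomerase, averaged 731 ± 74.1 CPM in calcitriol and 688 ± 72.8 CPM in vehicle libraries (SD, n = 11 each), a log2 change of 0.09 ± 0.06. The phosphofructokinase genes, which encode the committed step, had log2 changes of 0.04 ± 0.08 for liver-type Pfkl, -0.05 ± 0.08 for platelet-type Pfkp and -0.04 ± 0.12 for muscle-type Pfkm, with adjusted p of 0.701 to 0.821. Pfkp was the most abundant of these per kilobase, with 53.8% ± 1.93 of the phosphofructokinase level in calcitriol and 55.0% ± 0.891 in vehicle libraries. Pfkl held 34.7% ± 3.05 and 33.4% ± 1.05, and Pfkm 11.5% ± 1.79 and 11.6% ± 0.749 (SD, n = 11 each). A gene on the opposite strand that shares Pfkp exon sequence had 28846 counts, 13.3% as many as Pfkp, and a gene overlapping Pfkm had 7979 counts beside the 11376 of Pfkm, so these shares are uncertain.

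Pfkfb3 (chromosome 2, 11471433 to 11554077, ENSMUSG00000026773) makes the regulatory form of fructose bisphosphate, an allosteric activator of phosphofructokinase. It ran from 60.6 to 115 CPM with a median of 96.9 in the calcitriol libraries, against 46.1 to 69.8 CPM with a median of 61.0 in the vehicle libraries. Of the 11 calcitriol libraries, 9 lay above every vehicle library, and replicates 1 and 2, at 60.6 and 65.7 CPM, lay within the vehicle range. Pfkfb3 rose by 0.66 ± 0.09 on the log2 scale (edgeR, adjusted p = 3.92e-06), a fold of 1.58. Its relative Pfkfb4 averaged 25.9 ± 2.87 CPM in calcitriol and 23.3 ± 2.13 CPM in vehicle libraries (log2 change 0.14 ± 0.07, adjusted p = 0.112). Without calcitriol replicate 9 its adjusted p was 0.0330.

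**Figure D2:**
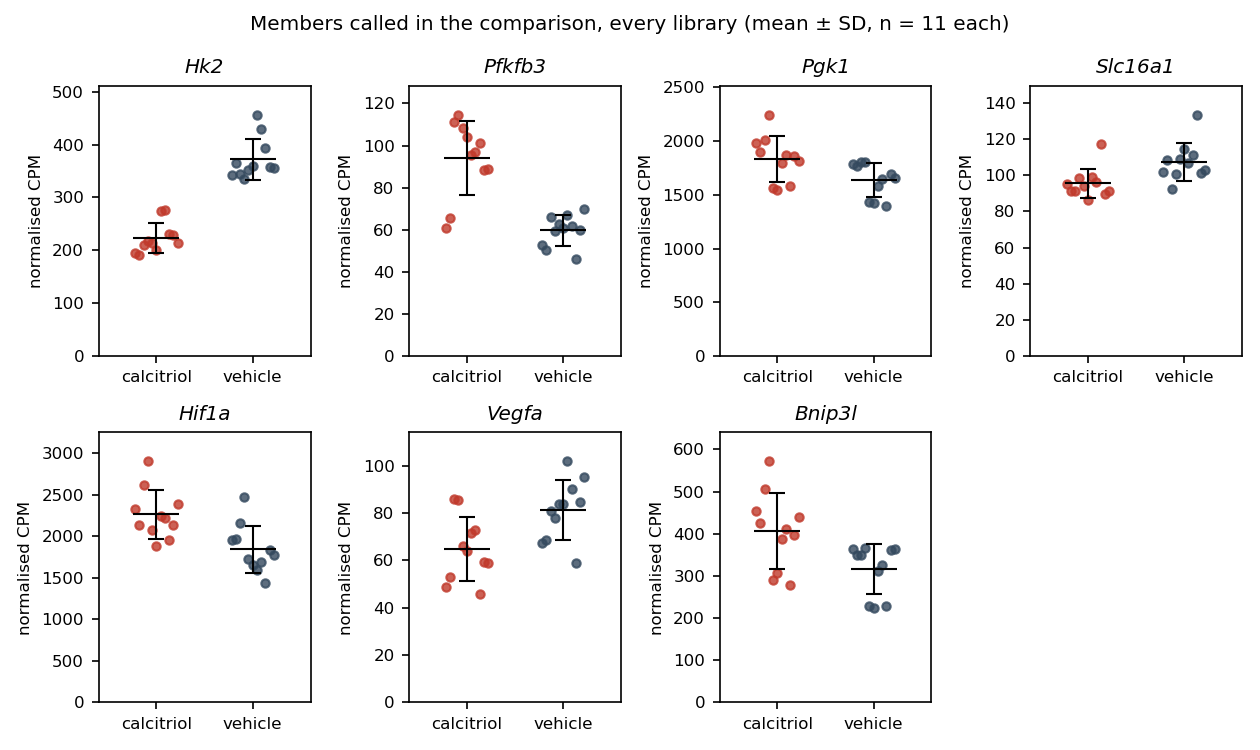
Normalised CPM of the 7 called genes in every library, calcitriol at left and vehicle at right in each panel, with vertical axes from 0, bars for the mean and SD, and n = 11 each. The Hk2 groups are separate, at 191 to 277 and 336 to 456 CPM, and the other 6 panels overlap.

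The aldolases and the triose phosphate isomerase were not called. Aldoa, the main aldolase, ran from 1899 to 3372 CPM with a median of 2595 in calcitriol and from 2210 to 3157 CPM with a median of 2752 in vehicle libraries (-0.06 ± 0.08, adjusted p = 0.657). Aldoc, the brain-type aldolase, averaged 194 ± 26.8 and 178 ± 25.6 CPM in calcitriol and vehicle libraries (0.12 ± 0.08, adjusted p = 0.272). Tpi1, which interconverts the triose phosphates, averaged 1578 ± 237 CPM in calcitriol and 1638 ± 224 CPM in vehicle libraries (-0.05 ± 0.09).

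Pgk1 (chromosome X, 106187100 to 106203699, ENSMUSG00000062070), the first step that returns ATP, was called at the edge of the threshold. It ran from 1545 to 2245 CPM with a median of 1864 in the calcitriol libraries and from 1396 to 1810 CPM with a median of 1661 in the vehicle libraries, with 7 of 11 calcitriol libraries above every vehicle library. Its log2 change was 0.16 ± 0.06 (edgeR, adjusted p = 0.0460). The call was lost under 5 other settings and in 15 of 22 fits that left out 1 library, as set out in the closing section.

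Pkm, pyruvate kinase, lay just outside the threshold with a change of the same size. It ran from 2490 to 3422 CPM with a median of 3122 in calcitriol and from 2301 to 3071 CPM with a median of 2743 in vehicle libraries (0.15 ± 0.06, adjusted p = 0.0534), and leaving out any of 7 single libraries brought it under 0.05. Pgam1, the mutase, averaged 52.5 ± 10.3 and 60.9 ± 7.53 CPM in calcitriol and vehicle libraries (-0.23 ± 0.09, adjusted p = 0.0644). Its adjusted p was 0.0455, 0.0146 and 0.0490 without calcitriol replicate 2, 3 or 4. Pgam1 also passed with limma-voom (adjusted p = 0.0285) and with total-count scaling in edgeR (adjusted p = 0.00863). Eno1, enolase, averaged 1158 ± 150 CPM in calcitriol and 1243 ± 132 CPM in vehicle libraries (-0.10 ± 0.07, adjusted p = 0.281), and genes near-identical to it in transcript sequence held 28.4% as many counts, so its level is uncertain.

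Lactate production and export gave 1 small call. Ldha, which reduces pyruvate to lactate, ran from 740 to 1052 CPM with a median of 946 in the calcitriol libraries and from 820 to 1083 CPM with a median of 932 in the vehicle libraries (-0.05 ± 0.07, adjusted p = 0.620). Slc16a1 (chromosome 3, 104638668 to 104658462, ENSMUSG00000032902), a monocarboxylate transporter that moves lactate with a proton, ran from 86.2 to 117 CPM with a median of 94.0 in calcitriol and from 92.2 to 133 CPM with a median of 107 in vehicle libraries. It fell by 0.17 on the log2 scale with an SE of 0.06 (edgeR, adjusted p = 0.0221), with 5 of 11 calcitriol libraries below every vehicle library. In both groups replicate 9 was its highest library. Slc16a3, the exporter of strongly glycolytic cells, averaged 294 ± 51.5 and 288 ± 68.8 CPM in calcitriol and vehicle libraries (0.03 ± 0.13). Pdk1, which phosphorylates and shuts pyruvate dehydrogenase, ran from 84.8 to 201 CPM with a median of 166 in calcitriol and from 81.6 to 177 CPM with a median of 148 in vehicle libraries (0.09 ± 0.14, adjusted p = 0.669).

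Hif1a (chromosome 12, 73901375 to 73947530, ENSMUSG00000021109), the oxygen-regulated subunit, was itself higher with calcitriol. It ran from 1888 to 2902 CPM with a median of 2223 in the calcitriol libraries and from 1441 to 2474 CPM with a median of 1777 in the vehicle libraries. All 11 calcitriol libraries exceeded the vehicle median, but only replicates 3 and 4 exceeded the highest vehicle library. Hif1a rose by 0.30 ± 0.08 on the log2 scale (edgeR, adjusted p = 0.00508), a fold of 1.23. The transcript level says nothing of the protein, which oxygen controls. The prolyl hydroxylases that mark it did not pass the test: Egln1, the main oxygen sensor, ran from 140 to 293 CPM with a median of 242 in calcitriol and from 153 to 283 CPM with a median of 232 in vehicle libraries (0.00 ± 0.12, adjusted p = 0.990). Egln3, the hypoxia-inducible hydroxylase, averaged 315 ± 89.6 and 307 ± 87.3 CPM in calcitriol and vehicle libraries (0.04 ± 0.18).

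Among HIF targets outside glycolysis, Vegfa was called lower and Bnip3l higher. Vegfa (chromosome 17, 46016993 to 46032369, ENSMUSG00000023951), the vascular growth factor, ran from 45.8 to 86.1 CPM with a median of 63.8 in calcitriol and from 58.9 to 102 CPM with a median of 83.8 in vehicle libraries. It fell by 0.33 on the log2 scale with an SE of 0.11 (edgeR, adjusted p = 0.0183), with 4 of 11 calcitriol libraries below every vehicle library. Bnip3l (chromosome 14, 66985239 to 67008877, ENSMUSG00000022051), a receptor for the removal of mitochondria, ran from 279 to 572 CPM with a median of 412 in calcitriol and from 224 to 366 CPM with a median of 349 in vehicle libraries. It rose by 0.36 ± 0.12 (adjusted p = 0.0285), with 8 of 11 calcitriol libraries above every vehicle library. Its adjusted p moved to 0.0524, 0.0570 and 0.0519 when calcitriol replicate 3, calcitriol replicate 4 or vehicle replicate 9 was left out. The related receptor Bnip3 ran from 159 to 365 CPM with a median of 295 in calcitriol and from 107 to 284 CPM with a median of 249 in vehicle libraries (0.23 ± 0.17, adjusted p = 0.335).

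The other 11 HIF targets were not called, and their log2 changes ran from -0.62 to 0.07. Car9, the cell surface carbonic anhydrase, was the lowest of the 38 genes, at 1.88 ± 0.756 CPM in calcitriol and 2.73 ± 1.03 CPM in vehicle libraries (-0.62 ± 0.25, adjusted p = 0.0558). Its adjusted p was 0.0220, 0.00764 and 0.0394 without calcitriol replicate 1, vehicle replicate 2 or vehicle replicate 6. It was 0.0486 with DESeq2 and 0.0288 with total-count scaling in edgeR, and the log2 change was -0.89 (edgeR, adjusted p = 0.00172) without replicates 1 and 2 of both groups. An overlapping gene on the opposite strand held 606 counts beside its 451. Ddit4, an inhibitor of mTOR signalling, averaged 295 ± 73.0 and 338 ± 61.3 CPM in calcitriol and vehicle libraries (-0.19 ± 0.13). Mxi1, a MAX partner that opposes MYC, had a log2 change of -0.17 ± 0.10, and Ankrd37 one of -0.19 ± 0.16, with up to 13752 counts in an overlapping antisense gene beside the 2010 of Ankrd37. The oxidase Ero1a and the stress gene Ndrg1 had changes of -0.12 ± 0.18 and -0.13 ± 0.17. P4ha1 and P4ha2, the catalytic subunits of collagen prolyl hydroxylase, had 0.07 ± 0.11 and -0.07 ± 0.25. For the histone demethylase Kdm3a, the mitochondrial protein Higd1a and Narf, the changes were 0.06 ± 0.09, -0.08 ± 0.08 and 0.06 ± 0.10.

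Isoenzyme use was compared as the log2 ratio of counts within a library, where sequencing depth and exon length drop out of the difference between groups. Of 10 pairs, 2 differed by permutation test (two-sided, 100000 resamples, adjusted over the 10). The Hk2 to Hk1 ratio was 0.46 ± 0.30 in calcitriol and 1.11 ± 0.19 in vehicle libraries (SD, n = 11 each), a difference of -0.65 (permutation p = 0.000100, adjusted p = 0.00100). It was below every vehicle library in 10 of 11 calcitriol libraries, and on the per-kilobase scale Hk2 supplied 66.1% ± 4.55 of the pair in calcitriol and 75.5% ± 2.46 in vehicle libraries. The Pfkfb3 to Pfkfb4 ratio was 1.84 ± 0.37 and 1.35 ± 0.23 in calcitriol and vehicle libraries, a difference of 0.49 (permutation p = 0.00160, adjusted p = 0.00800), and 9 of 11 calcitriol libraries lay above every vehicle library.

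The remaining 8 ratios did not pass. Aldoa to Aldoc differed by -0.19 (permutation test, adjusted p = 0.0630) and Slc2a1 to Slc2a3 by -0.34 (adjusted p = 0.0794), and the differences of the other 6 ran from -0.22 to 0.03 with adjusted p of 0.285 to 0.741. Within the phosphofructokinases the ratios of Pfkp to Pfkl and of Pfkm to Pfkl varied more between calcitriol libraries (SD 0.18 and 0.34) than between vehicle libraries (SD 0.06 and 0.12). The calcitriol libraries lay on both sides of the vehicle range for each of these ratios. For Pfkp to Pfkl, 2 of 11 lay above every vehicle library and 7 below, and for Pfkm to Pfkl 4 lay above and 4 below. This difference in spread was not tested.

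**Figure D3:**
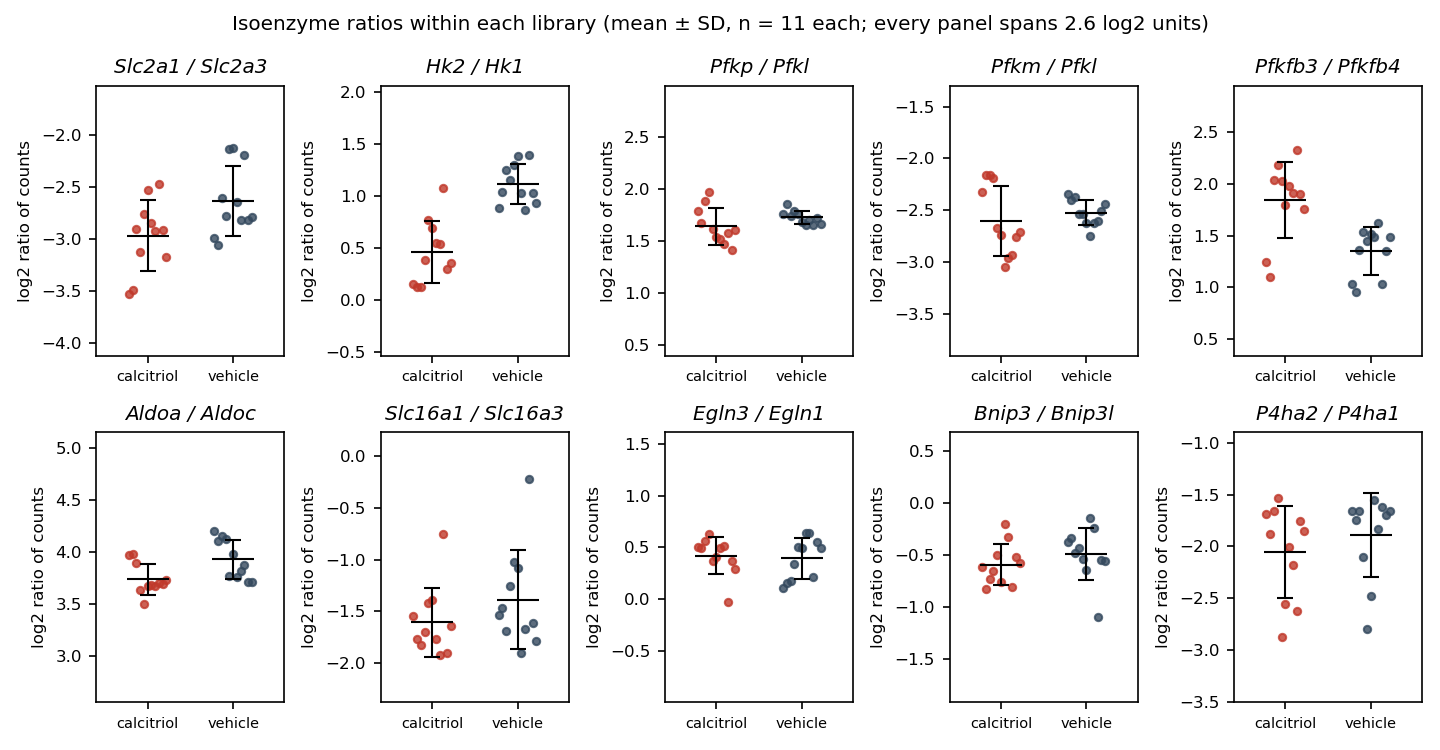
Log2 ratio of the counts of a pair of isoenzymes in each library, calcitriol at left and vehicle at right in each panel, with bars for the mean and SD and n = 11 each. The Hk2 to Hk1 ratio is lower with calcitriol (0.46 and 1.11), the Pfkfb3 to Pfkfb4 ratio is higher (1.84 and 1.35), and the other 8 pairs overlap more.

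Much of the spread of these genes lay between libraries of the same group, and it ran across most of the set at once. Calcitriol replicate 9 was the lowest of its group for 22 of the 38 genes and vehicle replicate 9 for 19. Replicates 5 and 6 were also low in each group, with median deviations over the glycolysis genes of -0.23 and -0.20 in calcitriol and -0.25 and -0.23 in vehicle libraries. The median deviation from the group mean over the hypoxia genes was -0.51 on the log2 scale in calcitriol replicate 9 and -0.53 in vehicle replicate 9, and over the glycolysis genes it was -0.33 in calcitriol replicate 9 and -0.22 in vehicle replicate 9. At the other end, calcitriol replicate 4 was the highest of its group for 18 genes and vehicle replicate 7 for 16. These deviations are measured against the group mean and so hold no treatment difference. Replicate numbers follow accession order, and the labels tie no library of one group to a library of the other, so no pairing was made. The coefficient of variation of a gene ran from 8.54% for Slc16a1 to 41.1% for P4ha2 in calcitriol and from 9.13% for Pfkfb4 to 37.8% for Car9 in vehicle libraries. Without both replicates numbered 9, a setting chosen after the data were seen, 5 of the 38 genes rose and 3 fell, the added gene being Pkm.

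**Figure D4:**
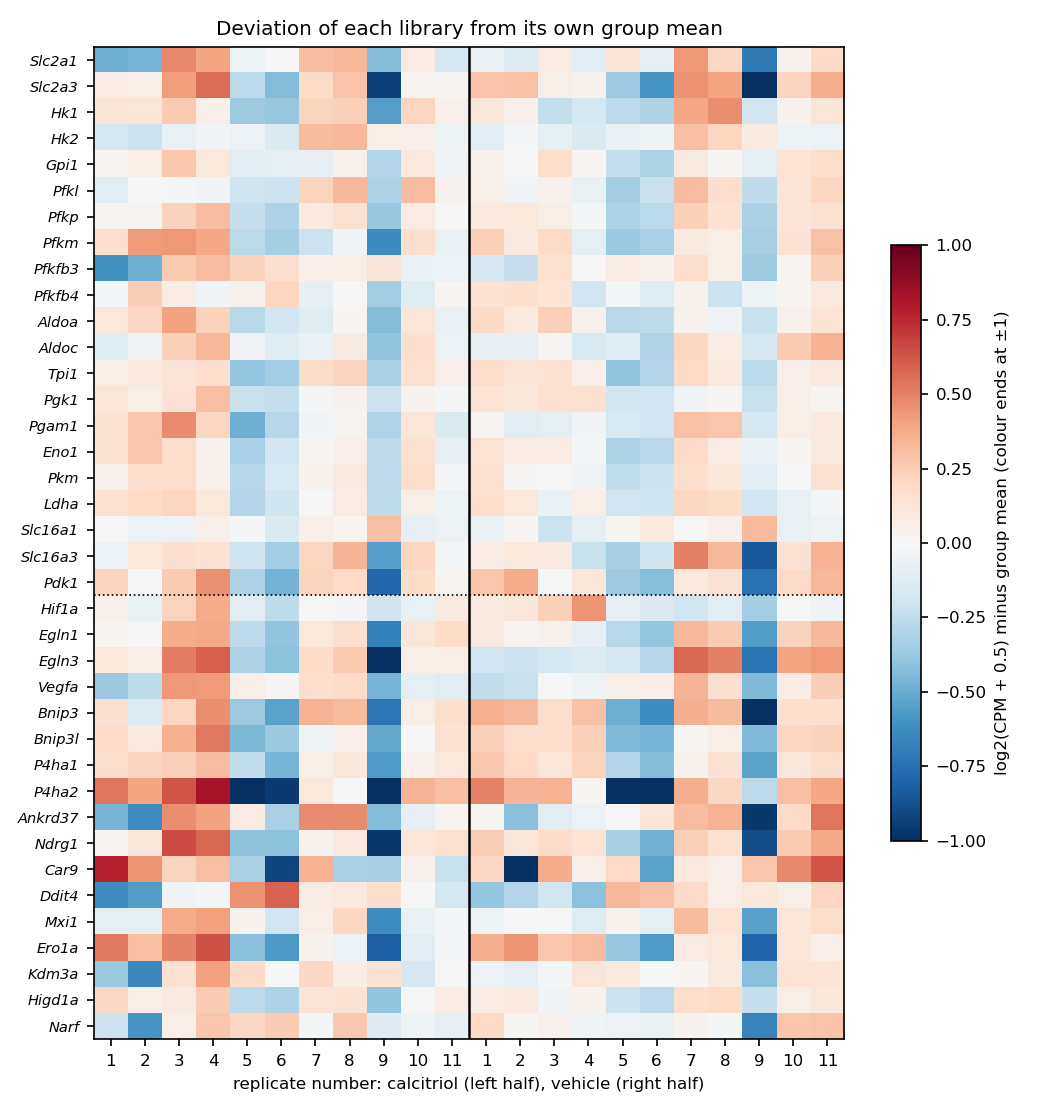
Each cell gives log2(CPM + 0.5) of a gene in a library minus the mean of that library's own group, with calcitriol libraries at left, vehicle libraries at right, and glycolysis genes above the dotted line. Columns 5, 6 and 9 have negative medians in both groups, with replicate 9 lowest for 22 genes in calcitriol and 19 in vehicle libraries.

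Other genes of the pathway came from lists chosen by name. Of 24 tested genes of glucose transport, glycolysis and its branches outside the set, 4 rose and 4 fell, or 33.3%. Among all genes tested, 31.5% were called. Gapdh averaged 1784 ± 273 and 1835 ± 262 CPM in calcitriol and vehicle libraries (log2 change -0.04 ± 0.09, edgeR adjusted p = 0.764). The transporter gene Slc2a6, of which the product sits mostly in intracellular membranes, ran from 16.7 to 35.8 CPM with a median of 19.5 in calcitriol and from 31.2 to 52.7 CPM with a median of 40.7 in vehicle libraries. It fell (edgeR, adjusted p = 7.02e-08), and 10 of 11 calcitriol libraries lay below every vehicle library. Of the lactate dehydrogenases outside the set, Ldhd, which acts on D-lactate, rose by 0.75 ± 0.11, and Ldhb, the heart-type subunit, fell by 0.35 on the log2 scale. The muscle enolase gene Eno3 fell by 0.31.

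At the entry of pyruvate into mitochondria 2 of 15 tested genes rose and 3 fell, or 33.3%, beside 31.5% of all genes tested. Malic enzyme Me2, which makes pyruvate from malate, rose by 0.62 ± 0.09 (edgeR, adjusted p = 9.55e-06), and the phosphatase Pdp1, which reactivates pyruvate dehydrogenase, rose by 0.45 ± 0.10. The pyruvate dehydrogenase subunits Dlat and Pdhb fell by 0.29 and by 0.18 on the log2 scale. The 8 tested genes of the pentose phosphate pathway had log2 changes between -0.10 and 0.11, and the lowest p was that of the transketolase gene Tkt (edgeR, adjusted p = 0.0817).

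The HIF machinery held a larger change than any of the hypoxia genes above. Epas1, which encodes the other major oxygen-regulated HIF alpha subunit, ran from 29.4 to 56.1 CPM with a median of 49.3 in the calcitriol libraries and from 17.9 to 30.2 CPM with a median of 21.8 in the vehicle libraries. It rose by 1.06 ± 0.10 on the log2 scale (edgeR, adjusted p = 7.59e-09), with 10 of 11 calcitriol libraries above every vehicle library. In all, 3 of 18 machinery genes rose, with the coactivator Crebbp at 0.28 ± 0.06 and Os9 at 0.25 ± 0.05, and 2 fell, among them the ubiquitin ligase Siah2 at -0.23 ± 0.07. That is 27.8% called, beside 31.5% of all genes tested. Arnt, the partner of the alpha subunits, averaged 52.2 ± 6.05 and 59.3 ± 8.79 CPM in calcitriol and vehicle libraries (-0.19 ± 0.08, adjusted p = 0.0635). Vhl, which recruits the ubiquitin ligase to hydroxylated HIF alpha, had a change of -0.20 ± 0.09 (adjusted p = 0.0851). Leaving out calcitriol replicate 1 or 3 or vehicle replicate 6 or 9 brought Arnt to 0.0340, 0.0486, 0.0222 and 0.0379, and leaving out calcitriol replicate 4 or vehicle replicate 9 brought Vhl to 0.0246 and 0.0239. With total-count scaling in edgeR the adjusted p was 0.00662 for Arnt and 0.0107 for Vhl. Without both replicates numbered 9 that of Vhl was 0.0382.

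Of 33 tested HIF targets outside the set, 3 rose and 10 fell, or 39.4%, with a median log2 change of -0.07. Among all genes tested, 31.5% were called, and the difference was not tested. The glycogen branching enzyme Gbe1 rose by 1.18 ± 0.18 (edgeR, adjusted p = 1.72e-05). It ran from 169 to 366 CPM in calcitriol and from 59.0 to 162 CPM in vehicle libraries, with no overlap. The highest log2 change of the list, 2.91, was that of another gene. The transcriptional repressor Bhlhe40 fell by 1.51 on the log2 scale and the lipid droplet coat gene Plin2 by 0.42. The Bhlhe40 groups did not overlap either, at 88.1 to 147 CPM in calcitriol and 233 to 413 CPM in vehicle libraries. Groups without overlap were found for 4.36% of all genes tested. In the MYC and MAX network 2 of 11 tested genes rose, or 18.2%, beside 31.5% of all genes tested. Mycl rose by 1.02 ± 0.23 at a low level, with 4.86 ± 2.34 CPM in calcitriol and 2.15 ± 0.838 CPM in vehicle libraries. Mxd4 rose by 0.21 ± 0.08. The Mxd4 call was lost without any of calcitriol replicates 1, 2, 3, 4, 8 and 10 or vehicle replicates 2, 3, 4, 5, 6, 8 and 9 (adjusted p = 0.0522 to 0.0792). Among other settings, it was lost with limma-voom (adjusted p = 0.0565) and with total-count scaling in edgeR (adjusted p = 0.150). Myc averaged 59.1 ± 22.3 and 80.8 ± 18.1 CPM in calcitriol and vehicle libraries (-0.48 ± 0.18, adjusted p = 0.0517). It passed without calcitriol replicate 1, 2 or 3 or vehicle replicate 5 or 6 (adjusted p = 0.0156 to 0.0355). Myc was also called lower with limma-voom (adjusted p = 0.00831). In edgeR it was called with total-count scaling, with non-robust dispersion and without replicates 1 and 2 of both groups (adjusted p = 0.0194, 0.0322 and 0.0146). The Myc result thus depends on the method.

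Total counts ran from 3214171 to 20258430 per library with a median of 7504710. As a check of the labels, Cyp24a1, the calcitriol-induced hydroxylase, had 2381 counts over the calcitriol libraries and 0 over the vehicle libraries. Replicates 1 and 2 of both groups stood apart from the other 18 libraries on the second principal component (-16.8 to -12.4, with the others at -6.56 to 11.2), and without these 4 libraries 2 of the 38 genes rose, Pfkfb3 and Hif1a, and 3 fell, Hk2, Vegfa and Car9. Pgk1, Slc16a1 and Bnip3l then had edgeR adjusted p of 0.0721, 0.0544 and 0.0628. T cell and TH2 markers were present in both groups, with Cd4 at 690 and 755 CPM and Gata3 at 97.2 and 86.5 CPM in calcitriol and vehicle libraries. Of the 9 genes of that list, 3 rose (Cd3d, Cd28 and Cd3e) and 2 fell (Cd4 and Il13), with log2 changes of 0.35 for Cd3d, 0.30 for Cd28 and -0.72 for Il13. That is 55.6% called, beside 31.5% of all genes tested. The part of these markers in the results was not tested. Summed markers of other cells reached at most 10.4 CPM in any library, for dendritic cells. In calcitriol libraries the sums ran from 2.52 to 9.53 CPM for CD8 T cells, 1.56 to 5.43 for B cells, 0.280 to 1.71 for myeloid cells and 3.85 to 9.34 for dendritic cells. In vehicle libraries the same sums ran from 3.87 to 8.36, 1.69 to 7.16, 0 to 1.27 and 6.63 to 10.4 CPM. Nearly all of the CD8 sum was Cd8b1, with means of 5.65 and 5.98 CPM in calcitriol and vehicle libraries. Cd8a averaged 0.044 and 0.065 CPM. Natural killer, mast and erythroid sums stayed at or below 1.14 CPM. Fcgr1, S100a9, Ncr1, both alpha globins, Hbb-bt and Alas2 were at 0 counts throughout. The globin values cannot show whether erythroid cells were present, because the library kit depletes globin RNA. Few markers of other cells passed the filter and were tested, namely 2 dendritic genes, 1 CD8 T cell gene and 1 B cell gene. Of these tested markers 1 was called, the dendritic gene Zbtb46, at 2.59 CPM in calcitriol and 4.68 CPM in vehicle libraries. The other dendritic gene tested had a log2 change of 0.003. Among all genes tested, 31.5% were called. The part of these cells in the results was not tested.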

How the data were processed

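Per the labels' protocols, total RNA was extracted at day 5 and the library kit keeps strand and depletes globin RNA. The authors deposited raw counts per Ensembl gene for 22 libraries. The tools named, per the submitters' processing notes, are HTSeq 0.13.5 and STAR 2.7.10a, with build GRCm38. The counting's strand setting is not given in the sources used here, nor its annotation. Names, coordinates and exon lengths came from GENCODE M21 on the same build.

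Genes were kept with filterByExpr and tested with edgeR 4.0.16 (R 4.3.3; TMM, robust quasi-likelihood, no covariate) over all 11905 genes, with a threshold of 0.05. In data simulated for this comparison (11812 genes, 195 changed), edgeR recovered 95.9% of changes of 1 and 76.5% of changes of 0.5 on the log2 scale, with 6.14% false calls. The simulated libraries were drawn independently and few genes were changed. In the real data some libraries resembled each other and 31.5% of genes were called, so these rates may not carry over. Isoenzyme ratios (0.5 added to each count) were tested by permutation (scipy 1.17.1). Near-identical genes were those with at least 95% identity over 300 bases (blastn 2.17.0); 12 of the 38 genes had one. Values by library are given for every called gene and for 14 genes fixed by name, and up to 4 called genes are named per other list, of which 1 is not reported here. Alternatives were DESeq2 1.42.0, limma-voom (limma 3.58.1), other scaling, filters and dispersion, summed sets of libraries, and libraries left out. The genes, lists and tests were chosen with earlier results of these data known.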

Additional observations from a re-analysis of the deposited data

How the results depend on the processing

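Hk2, Pfkfb3 and Hif1a kept their direction and their call under all 32 alternatives run, with log2 changes of -0.81 to -0.70, 0.59 to 0.72 and 0.23 to 0.35. The other 4 calls were less stable. With sets of libraries summed (pairs within a group whose profiles correlated best with each other), 2 of the 38 genes rose and 1 fell, and Pgk1, Slc16a1, Vegfa and Bnip3l had adjusted p of 0.186, 0.108, 0.102 and 0.133. Scaling by total counts gave 2 higher and 7 lower and moved the median of all genes from -0.01 to -0.08. Without the 4 libraries that stood apart, 2 rose, and with no filter on low counts 1 fell. Leaving out 1 library at a time gave 2 to 6 genes higher and 3 to 4 lower, with 2 higher without calcitriol replicate 3 or 4 or vehicle replicate 9. The Pgk1 call was lost without any library except calcitriol replicates 5, 6 and 9 and vehicle replicates 1 to 4 (adjusted p = 0.0513 to 0.0928), and with limma-voom, total-count scaling, non-robust dispersion or the 4 libraries left out (0.0551, 0.188, 0.0502 and 0.0721). Pkm passed without calcitriol replicate 5, 6 or 9 or vehicle replicate 1, 7, 8 or 11 (adjusted p = 0.0196 to 0.0490). The Hk2 to Hk1 ratio kept its call under all 26 alternatives run for ratios (-0.71 to -0.61, permutation test, highest adjusted p = 0.0233). So did the Pfkfb3 to Pfkfb4 ratio (0.41 to 0.61, permutation test, highest adjusted p = 0.028). The Aldoa to Aldoc ratio passed without the 4 libraries (-0.19, adjusted p = 0.0287); leaving out 1 library gave -0.21 to -0.16, with a pass without calcitriol replicate 1, 2 or 3 or vehicle replicate 5, 7, 10 or 11. Slc2a1 to Slc2a3 ran from -0.39 to -0.28 and passed without calcitriol replicate 9. The cause of these changes was not tested. Over all alternatives, 3467 to 4197 genes were called except with sets summed (2881), against 3755. In no alternative did a called gene or ratio change direction. No paired analysis was made, because the labels give no replicate numbers or mice, and numbers in accession order need not pair libraries. Replicates 1 and 2 stood apart, and replicates 5, 6 and 9 were low, in both groups. Whether libraries of the same number share a source was not tested. The fit had no covariate, so any spread shared by such libraries stayed in its error and can hide small changes.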
